A study of Caenorhabditis elegans with 3 samples.

Results

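Of the 1500 regions of highest ChIP-seq signal for the transcription factor MML-1 in larvae of Caenorhabditis elegans, 391 lay between genes and away from promoters. They were selected on the authors' signal value in the list pooled over 3 replicates, which held 30000 regions. A region was kept when its summit, the position of highest signal, lay in no protein-coding gene body. It also had to lie outside the promoter windows of the WBcel235 assembly (ce11), which reach 1000 bp before and 200 bp past each start of a protein-coding transcript. The other top regions were 602 in promoter windows and 507 in gene bodies outside those windows. The whole pooled list held 6758 intergenic regions away from promoters, of which 6367 ranked below 1500. The pooled list holds peaks and background by its label, so that a region in it is not by itself a binding site.

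The animals were whole L3 larvae of mixed sex of strain OP198, with the genotype unc-119(ed3) III; wgIs198, in which an integrated transgene expresses MML-1. The labels name the tag both as eGFP and as GFP-FLAG at the C terminus. All 3 biological replicates carried this 1 transgene insertion, and there was no second condition. Replicates 1 and 2 carry a fragment size range in their labels and came from a stock centre, while replicate 3 was sonicated and came from the submitting laboratory. Whole larvae mix all tissues, and a possible control library named in the labels was not analysed here. How deeply each library was sequenced is not known from the lists.

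MML-1 is the worm member of the Mondo family of basic helix-loop-helix leucine zipper proteins and has the Max-like MXL-2 as its partner. Such proteins bind the E-box, a short palindrome whose core form is CACGTG. In mammals the Mondo proteins ChREBP and MondoA sense sugar metabolites, and with their partner Mlx they bind carbohydrate response elements, in which a pair of E-boxes is separated by 5 bases. In the worm, MML-1 is known for its part in longevity and in the control of autophagy and metabolism.

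The E-box stood within 100 bp of the summit in 89 of the 391 intergenic regions (22.8%, exact 95% interval 18.7 to 27.2%). The same share was 4.67% over all pooled regions and 4.9% over intergenic regions at any rank. Within the members, the site lay a median of 15.5 bp from the summit. The next lines show, for the highest-ranked members, the E-box (capitals) with 12 bases on either side, 5′ to 3′ on the plus strand of ce11. Each line opens with the flanking genes and the rank in the pooled list. They are 6 of the 12 highest sites outside the chromosome left out here, and the other 6 stand among the paired sites that follow.
CC8.2 and fmil-1, rank 11, chrIV:3654380-3654409: tcccgccgggtgCACGTGaacccccgggcg
R03E9.2 and mdl-1, rank 12, chrX:6737735-6737764: atgcatgggatgCACGTGcgccagcagatg
mxl-3 and C49F8.15, rank 21, chrX:13358782-13358811: gaggatgcgattCACGTGcaatcagcctct
R06B9.5 and mig-14, rank 39, chrII:13737068-13737097: gagaaggtgtttCACGTGaacggcaggcat
mxl-3 and C49F8.15, rank 45, chrX:13360077-13360106: ccctctccaattCACGTGctattgtaccca
R03E9.2 and mdl-1, rank 46, chrX:6741232-6741261: gccaagctcctgCACGTGaggcttcaaaat
The bases next to the core differed from site to site in these lines. Taking the site nearest the summit in each of the 89 members with one, the flanked form was TCACGTGA in 19, GCACGTGA in 15 and ACACGTGA in 10, read on either strand. With any site in the window counted, TCACGTGA was in 22 of the 89 members. A second CACGTG stood in the same window in 15 members (3.84%), against 0.257% of all pooled regions.

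The distance between E-boxes was then examined, a measure chosen after the sequences had been seen. A hexamer pair was counted where 2 hexamers, compared with CACGTG, had at most 2 mismatches over their 12 positions together, at each spacing from 0 to 20 bases. With 5 bases between them, 39 members held such a pair (9.97%, 7.19 to 13.4%), and 217 of all pooled regions did (0.723%). Over the other spacings the share of members ran from 0.767 to 4.60% with a median of 1.79%, and the next highest was at 3 bases, in 18 members. The pair centre lay a median of 12 bp from the summit, and within 25 bp in 29 of the 39. The lines below show all members outside the chromosome left out with at most 1 mismatch at this spacing, with both hexamers in capitals and 6 bases on either side.
mdl-1 and abts-4, rank 16, chrX:6744020-6744048: cgcagcCACATGttgatCACGTGtcgccg
acl-12 and sox-2, rank 18, chrX:7446633-7446661: gaacagCACGTGaacttCACGTGaacttc
mxl-3 and C49F8.15, rank 32, chrX:13353637-13353665: acacttCACGTGcggtaCGCGTGttcatc
penr-1 and natc-2, rank 40, chrV:5271636-5271664: atatcgCACGTTgtgttCACGTGatgtac
F22B7.9 and dpy-19, rank 42, chrIII:8658424-8658452: cagtctCACGTTaaataCACGTGtcaatt
clp-7 and nadk-1, rank 55, chrIV:1454357-1454385: gtcagcCACGTGtcattCACGTGtatttt
K08B12.3 and dmd-7, rank 57, chrV:6240921-6240949: gaaacgCTCGTGgaatgCACGTGgcgaat
ztf-27 and T09F3.2, rank 62, chrII:10388479-10388507: gaaaaaCACGTGtaaacCACGTGactgtt
tin-9.1 and nhr-105, rank 63, chrIV:7047794-7047822: gaatctCACATGtttgtCACGTGgactgt
R10E4.1 and sup-26, rank 113, chrIII:4273104-4273132: aagcgaCCCGTGatgtgCACGTGacggag
nhr-119 and K12H6.12, rank 124, chrII:2803097-2803125: actgtaCACGTGgcccgCGCGTGgagact
T19H5.4 and gcy-3, rank 153, chrII:9493840-9493868: cttgttCACGTGcctacCTCGTGactgcc
saeg-1 and F32D8.1, rank 385, chrV:10867797-10867825: tgaaatGACGTGgaaatCACGTGactagc
In 3 of these lines both hexamers read CACGTG: those between acl-12 and sox-2, between clp-7 and nadk-1, and between ztf-27 and T09F3.2. The region at acl-12 held a further CACGTG, again 5 bases on. Of the 39 pairs, 4 had no mismatch, 11 had 1 and 24 had 2.

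Some of the highest regions had no CACGTG in the window but a looser pair at the same spacing. Of the 24 members without CACGTG among the first 195 ranks, 11 (45.8%, 25.6 to 67.2%) held hexamers 5 bases apart with at most 3 mismatches over 12 positions. The median share over the other spacings in these 24 was 10.4%, and the highest was 29.2%. With so loose a rule a match is common in any sequence, at 4.03% of all pooled regions. The 5 highest outside the chromosome left out are shown, with the hexamers in capitals.
pdi-2 and nhr-35, rank 10, chrX:4530575-4530603: gcaataAACGTGaaaacTGCGTGgccatg
far-8 and K02F3.2, rank 25, chrIII:844156-844184: gttgacCACGCTaaaaaCACGCGcggcac
srx-113 and F56H9.2, rank 48, chrV:12634932-12634960: aaacaaCTCATGaaattCACATGcagaag
mdl-1 and abts-4, rank 72, chrX:6745727-6745755: attgcaCACGAGaaaaaCATGTGccgtca
ztf-27 and T09F3.2, rank 93, chrII:10389912-10389940: ctcagtCACATAcacttGACGTGtttccc
The hexamers between mdl-1 and abts-4 each had 1 mismatch to CACGTG, and the other 4 pairs had 3 mismatches in all. A match is a description of letters in the window and was not tested as a site.

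**Figure D1:**
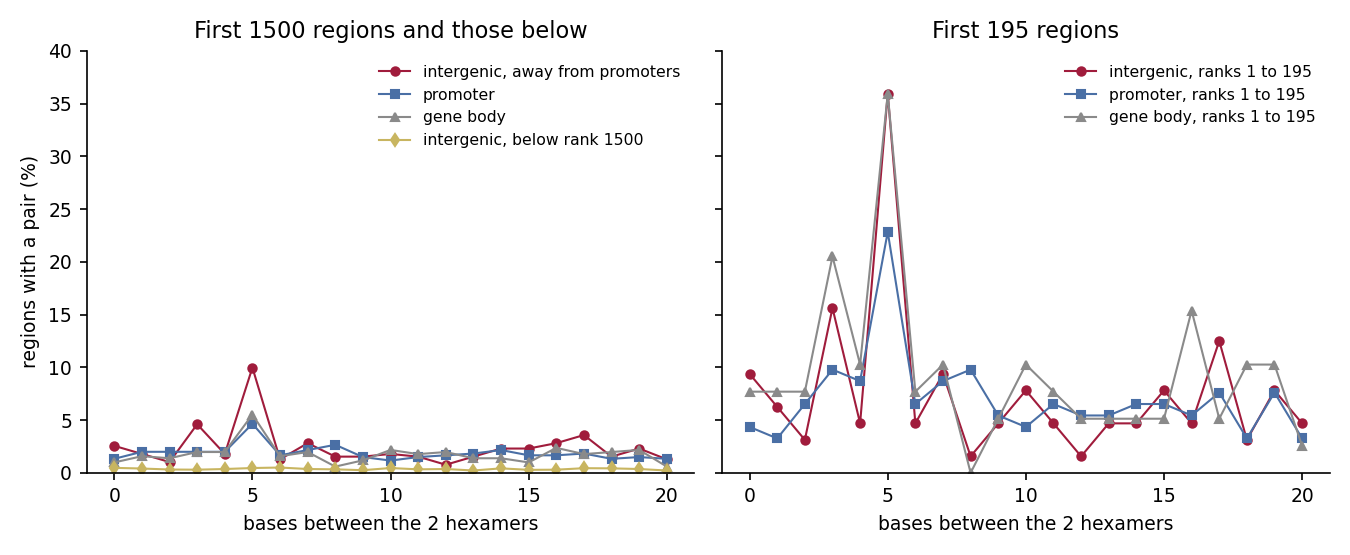
Share of regions with a pair of E-box-like hexamers (at most 2 mismatches over 12 positions within 100 bp of the summit) by the number of bases between them, for the first 1500 pooled regions by location with the intergenic regions below rank 1500 (left) and for ranks 1 to 195 (right). Each line has its highest point at 5 bases except that of the intergenic regions below rank 1500, and 9.97% of the 391 intergenic regions and 35.9% of their first 64 held a pair there.

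The paired form was found at the top of the list in each location class. Among ranks 1 to 195, 23 of 64 members held a pair 5 bases apart (35.9%, 24.3 to 48.9%), beside 21 of 92 promoter regions (22.8%) and 14 of 39 gene-body regions (35.9%). Below rank 195, 16 of 327 members did (4.89%). Over the first 1500 regions the share was 4.65% in promoter regions and 5.52% in gene-body regions, and it was 0.455% in intergenic regions below rank 1500. No test was made between the classes, since the measure was chosen on these sequences.

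The 20 members of highest signal were next described one by one, from rank 6 to rank 56 of the pooled list. All 20 overlapped the authors' reproducible list, which holds 195 peaks, as did every member of rank 195 or better. All 20 also had a region among the first 1500 of each replicate list within 200 bp. The E-box was present in 14 of them, and a pair 5 bases apart with at most 2 mismatches in 11. A replicate rank below is the best rank, in that replicate's own list, of a region whose summit lay within 200 bp.

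The highest member lay between the divergent genes F26A3.4 and F26A3.5 on chromosome I, 7662142 to 7662395, 3985 bp from the former, with a signal of 368.7. It ranked 5, 5 and 8 in replicates 1, 2 and 3, so the replicates placed it alike, and it had no CACGTG. The next, at rank 10, lay 2097 bp upstream of nhr-35, a nuclear hormone receptor gene, with pdi-2, a protein disulfide isomerase gene, on its other side (chromosome X, 4530487 to 4530696). Its signal was 271.3, and it ranked 6 and 4 in replicates 1 and 2 but 783 in replicate 3. Replicate 3 stood apart here more than at any other of the 20. Rank 11 lay between CC8.2 and fmil-1 on chromosome IV, 3654290 to 3654498, and ranked 11, 10 and 19.

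The largest groups of members lay beside mdl-1 and mxl-3, both genes of bHLH zipper proteins. At mdl-1, which encodes a Mad-like protein that pairs with a Max-like partner, rank 12 lay 4584 bp upstream on chromosome X, 6737642 to 6737912, and ranked 14, 18 and 7. Rank 16 lay just past its end at 6743917 to 6744150 and ranked 19, 19 and 11. Rank 46 lay 1103 bp upstream at 6741106 to 6741389 and ranked 64, 142 and 34. Each of these held an E-box, and replicate 3 placed all 3 higher than the other replicates did. The transcript start nearest to rank 12 was that of the divergent gene R03E9.2, at 4466 bp. At mxl-3, whose Max-like product is known to repress lysosomal lipase genes in fed worms, rank 21 lay 7983 bp upstream (chromosome X, 13358683 to 13358854) and ranked 22, 42 and 15. Rank 32 lay 2852 bp upstream at 13353618 to 13353733 and ranked 43, 31 and 20, and rank 45 lay 9291 bp upstream at 13359953 to 13360236 and ranked 44, 107 and 71. All 3 held an E-box. For ranks 21 and 45 the nearest transcript start was that of C49F8.15, at 3799 and 2491 bp.

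Another 5 of the 20 lay beside other genes. Rank 18, with the 3 E-boxes, lay 4078 bp upstream of acl-12, a gene of the acyltransferase family, and downstream of the Sox gene sox-2 (chromosome X, 7446546 to 7446756). It ranked 16, 11 and 143, lower in replicate 3. Rank 23 lay 1328 bp upstream of gpdh-3, a glycerol-3-phosphate dehydrogenase gene, on chromosome I, 7563181 to 7563321, and ranked 26, 25 and 26. Rank 25 lay 371 bp past the end of far-8, which encodes a fatty acid and retinol binding protein (chromosome III, 844116 to 844258), and ranked 21, 16 and 62. Neither of the last 2 held CACGTG. Rank 54 lay 1342 bp upstream of pyk-1, a pyruvate kinase gene of glycolysis, and 138 bp past the end of the elongation factor gene eef-2 (chromosome I, 9166948 to 9167231). It ranked 142, 28 and 63 and held an E-box. Rank 55 lay between clp-7, a calpain gene, and nadk-1, an NAD kinase gene (chromosome IV, 1454264 to 1454547), and ranked 60, 64 and 68.

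The remaining 6 were flanked by genes of other roles. Rank 39 lay between R06B9.5 and mig-14, which acts in Wnt secretion (chromosome II, 13736996 to 13737123), and ranked 41, 32 and 36. Rank 40 lay between penr-1 and natc-2 (chromosome V, 5271478 to 5271761) and ranked 46, 58 and 33. Rank 42 lay between F22B7.9 and dpy-19, a mannosyltransferase gene needed for neuroblast migration (chromosome III, 8658371 to 8658654), and ranked 70, 34 and 31. These 3 held an E-box and ranked from 31 to 70 in every replicate. Rank 44 lay between rga-2 and tmem-189 (chromosome I, 11994062 to 11994345), ranked 42, 52 and 107 and held an E-box. Rank 48 lay between the chemoreceptor gene srx-113 and F56H9.2 (chromosome V, 12634804 to 12635087), ranked 59, 37 and 54 and had none. Rank 56 lay 1736 bp upstream of egl-9, the prolyl hydroxylase gene that acts on the hypoxia-inducible factor HIF-1, with chw-1 on the other side (chromosome V, 10466639 to 10466922). It ranked 51, 84 and 49 and had no CACGTG, and its summit lay within annotated non-coding RNA genes.

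**Figure D2:**
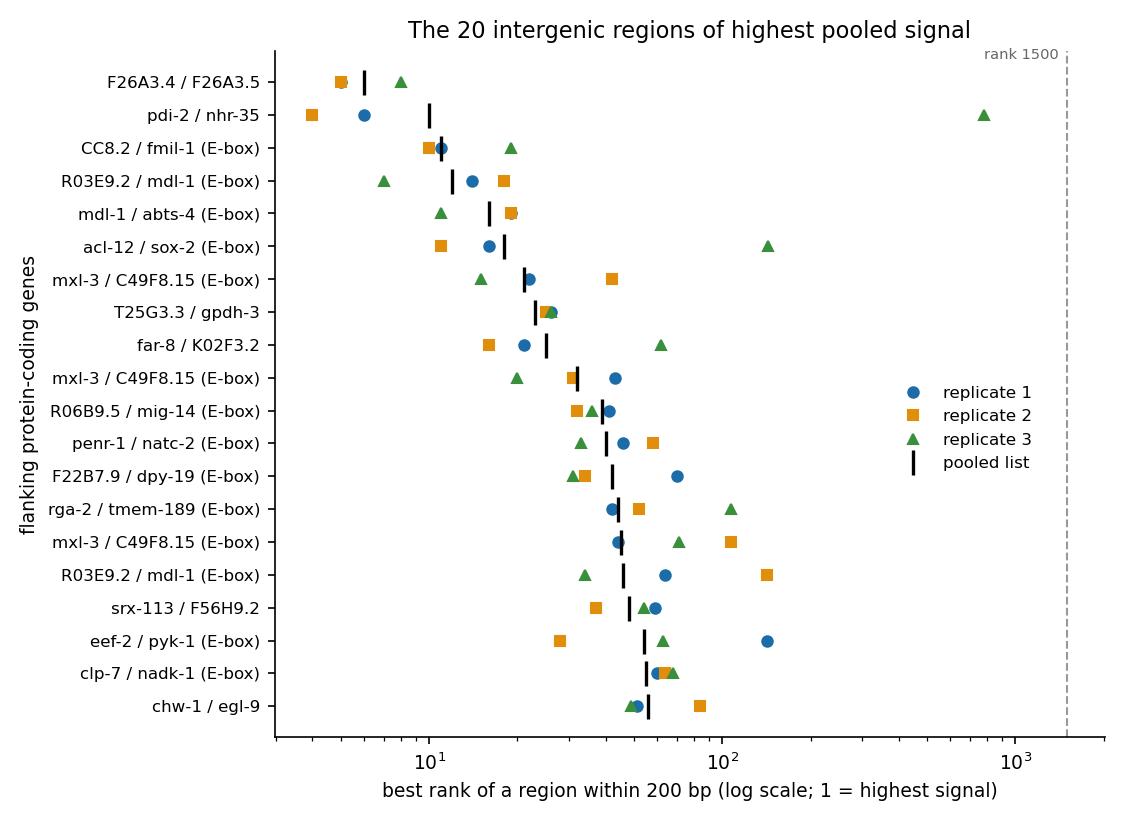
Rank of the 20 intergenic regions of highest pooled signal in the pooled list (bars) and in each replicate list (symbols, log axis), named by their flanking genes, with the dashed line at rank 1500. Apart from rank 783 in replicate 3 beside nhr-35, the replicate ranks run from 4 to 143.

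Recovery in the replicates fell steeply with rank. Since the replicates also made the pooled list, these counts are descriptions with no test. A region among the first 1500 of the replicate's own list lay within 200 bp of 166 members in replicate 1, 116 in replicate 2 and 141 in replicate 3. Over all pooled regions the shares were 4.76%, 4.39% and 3.86% in that order. All 3 replicates had one for 40 members (10.2%, 7.41 to 13.7%), against 0.443% of all pooled regions, and 38 of the 40 were among the first 195 ranks. A further 70 were recovered in 2 replicates, 163 in 1 and 118 in none. Of the 120 members of ranks 1001 to 1500, 71 were in the first 1500 of no replicate, and of the 64 members up to rank 195, 0 were, whose exact interval reaches 5.601%. With any listed region counted, at whatever rank, the numbers rose to 343, 303 and 270, beside 49.7%, 44.9% and 33.7% of all pooled regions. The shares were 87.7, 77.5 and 69.05% of members, 88.7, 77.1 and 69.9% of top promoter regions, and 87.4, 77.1 and 63.7% of top gene-body regions. In all 3 lists 166 members had a listed region (42.5%), and 4.91% of all pooled regions did. The list of replicate 3 was shorter, with 27021 regions beside 30000 in each of the others. Its most common region width was 360 bp, beside 264 and 260 bp in replicates 1 and 2. The part of these differences in recovery was not tested. Without replicate 2, 77 members were among the first 1500 of both others, and without replicate 3, 62 were.

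The reproducible list overlapped 65 members (16.6%, 13.1 to 20.7%), and 0.677% of all pooled regions. It overlapped 15.3% of top promoter regions and 7.89% of top gene-body regions. Of the 65 members, 64 were those of rank 195 or better. The other was rank 1151 between mstr-1 and nars-1, which overlapped the edge of a promoter peak of rank 41. Overlap with this list thus largely restated the pooled rank on which members were chosen. The contrast with all pooled regions is therefore no separate support. The 3 members just inside rank 1500 were ranks 1494, 1497 and 1499, with signals of 13.78, 13.77 and 13.77. The 3 intergenic regions just outside were ranks 1505, 1510 and 1516, with signals of 13.76, 13.75 and 13.74. None of the 6 held CACGTG. The rank limit thus cut through a range of near-equal signals.

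The E-box followed the recovery. Of the members recovered in all 3 replicates, 62.5% held CACGTG (25 of 40), and the shares were 34.3% for 2 replicates, 17.2% for 1 and 10.2% for none. Members with a pair 5 bases apart were recovered in all 3 replicates in 19 of 39 cases, and members without a pair in 21 of 352. Among members with CACGTG alone, the counts were 14 of 32 with a pair (43.75%, 26.4 to 62.3%) and 11 of 57 without (19.3%, 10.05 to 31.9%). These 2 intervals overlapped. Replicate 3 had 59 of the 89 members with CACGTG (66.3%) but 82 of the 302 without (27.2%) among its first 1500. In replicate 1 the counts were 50 of 89 and 116 of 302, and in replicate 2 they were 42 of 89 and 74 of 302. Both motif measures and recovery move with rank, and the part of rank was not tested apart.

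The share of regions with an E-box was compared between the intergenic regions and the other top 1500 regions. It was higher in the intergenic regions, at 22.8%, than in promoter regions, at 15.95% (96 of 602; odds ratio 1.55; Fisher's exact test, two-sided, p = 0.00764 and, after Benjamini-Hochberg adjustment over 2 comparisons, 0.00764). It was also higher than in gene-body regions, at 14.4% (73 of 507; odds ratio 1.75; p = 0.00158 by the same exact test, 0.00315 after adjustment). The units are regions, so the spread between animals is not covered. In the replicates taken singly, the intergenic and promoter shares were close. Among the first 1500 regions of each replicate's own list, intergenic and promoter shares were 15.5 and 15.1% in replicate 1, 13.7 and 13.5% in replicate 2 and 17.9 and 17.8% in replicate 3. The means were 15.7% ± 2.08 (SD, n = 3) and 15.4% ± 2.17 (SD, n = 3). Paired within replicates, the intergenic share was higher in 3 of 3, by 0.332, 0.272 and 0.118 percentage points, with a mean of 0.241 ± 0.110 (SD, n = 3; exact two-sided permutation of signs, p = 0.25, the smallest that 3 replicates allow). For gene-body regions the mean was 10.7% ± 4.13 (SD, n = 3). The intergenic share was higher than it in 3 of 3 replicates, by 3.07, 7.68 and 4.08 percentage points, with a mean of 4.94 ± 2.42 (SD, n = 3; the same exact permutation, p = 0.25). There the odds ratio in replicate 2 was 2.47 (Fisher's exact test, adjusted p = 0.000126), and in replicates 1 and 3 it was 1.29 and 1.36 with adjusted p of 0.365 and 0.176.

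By rank, the share fell in every class. Among ranks 1 to 195 the E-box was in 40 of 64 members (62.5%), 49 of 92 promoter regions (53.3%) and 27 of 39 gene-body regions (69.2%). The odds ratio against gene-body regions was below 1 in that range, at 0.741 (Fisher's exact test, adjusted p = 0.529). Among ranks 196 to 500 it was in 23 of 92, 27 of 133 and 22 of 80 in the same order. The gene-body share was thus above the intergenic share in this range too, and it was below it only in the lower ranges that follow. The shares were 13.04, 7.04 and 8.07% among ranks 501 to 1000, and 9.17, 3.37 and 4.46% among ranks 1001 to 1500. Over ranks 196 to 1500 the odds ratios were 1.74 and 1.62 (Fisher's exact test, adjusted p = 0.0282 and 0.0344). With the first 750 regions alone, neither comparison passed (odds ratios 1.48 and 1.25, Fisher's exact test, adjusted p = 0.102 and 0.338).

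**Figure D3:**
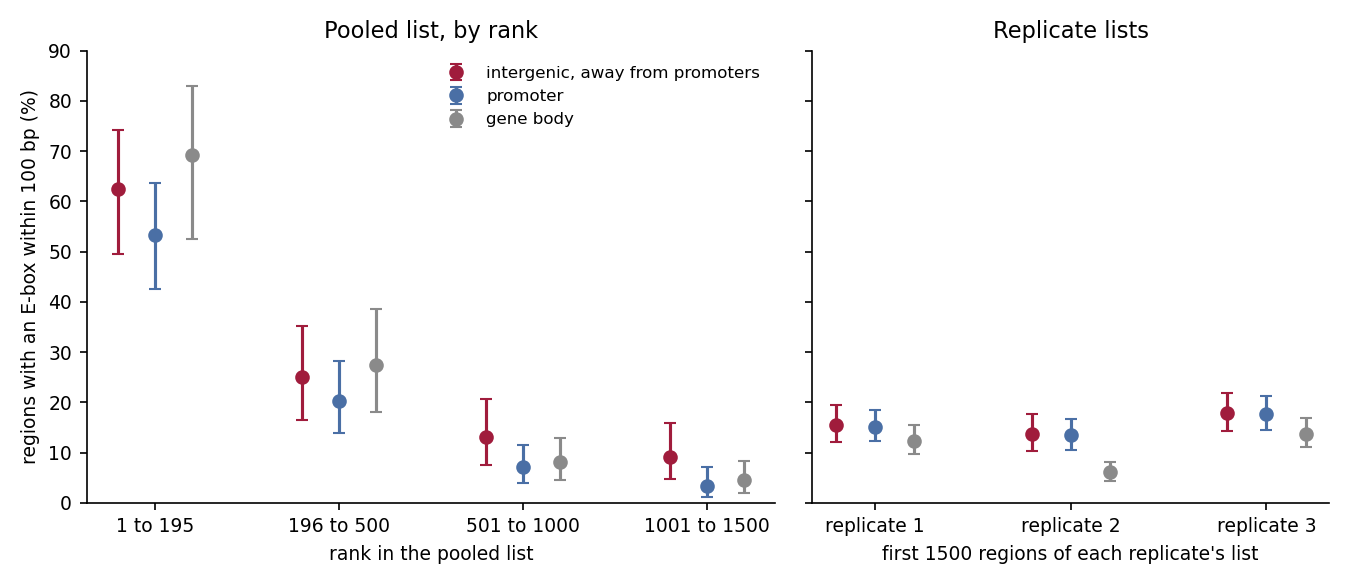
Share of regions with an E-box within 100 bp of the summit, by location, for 4 rank ranges of the pooled list (left) and for the first 1500 regions of each replicate list (right), with exact 95% intervals that cover the number of regions only. In the pooled list the intergenic share falls from 62.5% to 9.17%, and in each replicate list the intergenic and promoter points lie side by side.

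In distance to genes and in gene orientation, the members were close to weaker intergenic regions. The nearest protein-coding transcript start lay a median of 2473 bp from the summit, with a range of 404 to 11330 bp, beside 2520 bp for intergenic regions below rank 1500. The member lay upstream of that start in 289 of 391 cases (73.9%, 69.3 to 78.2%), and weaker regions did in 69.1%. The flanking genes were divergent around 143 members, in tandem around 203 and convergent around 45. The share in divergent gaps was 36.6% (31.8 to 41.6%) beside 32.6% below rank 1500. The E-box share was 20.3% in divergent gaps, 25.1% in tandem gaps and 9 of 45 in convergent gaps, with intervals that overlapped. The gaps were 64 to 35560 bp long with a median of 6734 bp. GC content over the 201 bases at the summit had a median of 41.8% in members, 41.8% in top promoter regions, 39.8% in top gene-body regions and 35.8% in intergenic regions below rank 1500.

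Another member lay within 10 kb of 123 of the 391 (31.5%, 26.9 to 36.3%), and some other top 1500 region within 10 kb of 192. In sets of the same size, a neighbour of the set stood within 10 kb of 82 of the next 391 intergenic regions by rank (20.97%, 17.04 to 25.4%). The counts were 101 of the first 391 promoter regions (25.8%, 21.6 to 30.5%) and 109 of the first 391 gene-body regions (27.9%, 23.5 to 32.6%). Joined at gaps of at most 10 kb, 59 members fell into 15 groups of 3 or more, and 268 stood alone. The E-box was in 20 of the 59 (33.9%, 22.1 to 47.4%) and in 48 of the 268 (17.9%, 13.5 to 23.0%).

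The largest group had 10 members around mdl-1, within 11.6 kb of chromosome X (6735660 to 6747220). Of these, 5 held an E-box and 5 overlapped the reproducible list. Seen from the start of mdl-1 along its strand, 7 stood upstream, from 6549 to 1103 bp away, and 3 stood past the end of the gene. Signals upstream, from far to near, were 22.7, 40.2, 212.2, 21.9, 25.4, 14.7 and 73.1, and past the end they were 182.5, 53.8 and 24.2. The highest member thus stood well upstream, with weaker ones on both of its sides. Between them lay 3 top regions of the promoter and the gene body, of which the strongest had a signal of 620.8. Among the weaker members, replicates differed: rank 98 was at 79 and 69 in replicates 1 and 3 but 19658 in replicate 2, and rank 206 was at 56 and 256 in replicates 2 and 3 but 5473 in replicate 1.

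The group of 6 at mxl-3 lay wholly upstream of that gene, from 1469 to 9291 bp, in the 10396 bp before C49F8.15. Their signals from near to far were 19.0, 107.0, 17.4, 28.1, 143.0 and 73.8. The 3 strongest were the 3 with an E-box. The remaining 3 had signals under 30 and varied more between replicates. The strongest of them had no region in replicate 2 but ranked 167 and 123 in replicates 1 and 3.

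**Figure D4:**
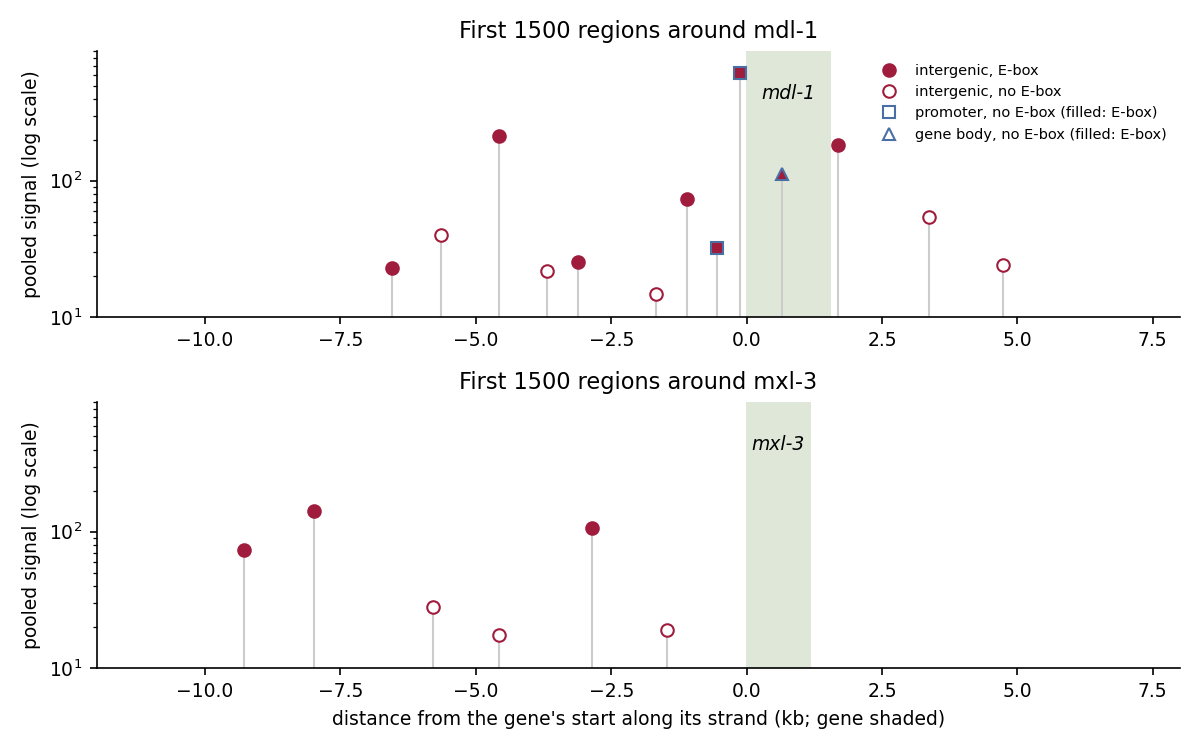
Pooled signal (log axis) of every top 1500 region around mdl-1 and mxl-3 by distance from the start of the gene along its strand, with the gene body shaded, filled symbols for regions with an E-box, circles for intergenic regions and squares or triangles for promoter or gene-body regions. At mdl-1 the 10 intergenic regions stand on both sides of the gene, and at mxl-3 all 6 stand upstream, with the 3 that hold an E-box highest.

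The other groups were smaller. F26A3.4, F26A3.5 and del-3 on chromosome I flanked 5 members within 10.2 kb, of which 1 held an E-box and 2 were reproducible. The 4 members between CC8.2 and fmil-1 on chromosome IV lay within 3.95 kb, and all 4 overlapped the reproducible list, at ranks 11, 99, 182 and 194. They held 2 E-boxes. A group of 4 near W06H8.6, K08B12.3 and dmd-7, a doublesex-domain gene, on chromosome V had 2 reproducible members. The 10 groups of 3 began with ceh-58, ztf-27 and T09F3.2 on chromosome II, where 2 members were recovered in all replicates, and W02D9.4 with dpsm-1. Further groups of 3 lay between C30E1.4 and F52G3.8, between gdh-1, the glutamate dehydrogenase gene, and tgt-1, and between nhr-46 and C31H1.2. Each of these had 1 reproducible member. The remaining 5 lay between din-1 and ghi-1, between got-2.2, an aspartate aminotransferase gene, and W05H9.4, near C46C2.5 and the kinase gene wnk-1, between Y49A3A.4 and unc-39, and between mstr-1 and nars-1. The first 4 of these had no reproducible member.

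The genes beside the members were counted against 15 lists of gene families and pathways. A member counted when a list gene was its left or right protein-coding neighbour, and the background was the share over the 6758 intergenic regions at any rank. Genes of the bHLH list flanked 20 members (5.12%, 3.15 to 7.79%) against 1.17% of intergenic regions. These 20 rested on 4 genes, with 10 members at mdl-1, 6 at mxl-3, 2 at mml-1 and 2 at hif-1, and 11 were reproducible. The stronger member at mml-1, at rank 151, lay 1855 bp upstream of the gene on chromosome III, 7376444 to 7376727, held an E-box and ranked 128, 189 and 173. The strain carries an MML-1 transgene, and reads of the transgene and of the locus cannot be told apart here. At hif-1, the gene of the hypoxia-inducible factor, rank 192 lay 1990 bp upstream, held an E-box and ranked 628, 171 and 262.

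Nuclear hormone receptor genes, whose products are ligand-binding transcription factors, flanked 25 members (6.39%, 4.18 to 9.29%) against 4.37%. The highest were nhr-35 at rank 10, nhr-105 at rank 63, nhr-119 at rank 124 and nhr-11 at rank 139. The last 3 held an E-box and stood 2344, 2517 and 6635 bp upstream of their genes. Rank 63 was at 53, 50 and 85 in the replicates, and rank 124 was at 2206, 1445 and 84, so that replicate 3 alone placed it high. Among other regulators, genes of the homeobox list flanked 7 members (1.79% against 2.23%), and none of the 7 was reproducible. The list entries beside the highest were ceh-58, ceh-39, npax-1 and nob-1, at ranks 409 to 889. GATA, T-box, forkhead and Sox genes flanked 3 (0.767% against 1.39%), which were sox-2, fkh-9 and egl-13. Wnt, semaphorin and axon guidance genes flanked 2 (0.512% against 1.15%), pop-1 and plx-2.

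Metabolic lists were small. Trehalose, glycogen and glycolysis genes flanked 5 members (1.28%, 0.417 to 2.96%) against 0.385%. They were led by pyk-1 at rank 54, the trehalose-6-phosphate synthase genes tps-2 at rank 142 and tps-1 at rank 1209, and the glyceraldehyde-3-phosphate dehydrogenase gene gpd-3 at rank 1150. Rank 142, 2348 bp upstream of tps-2 on chromosome II, 14598412 to 14598695, held an E-box and ranked 98, 196 and 1761, lowest in replicate 3. Fat metabolism genes flanked 9 (2.30%, 1.06 to 4.32%) against 1.24%. The highest were at acl-12, at acs-11, an acyl-CoA synthetase gene with members of ranks 133 and 148, at lpin-1, the lipin gene, at rank 170, and at dhs-8 at rank 516. Those at acs-11 and the stronger one at lpin-1 held an E-box. Rank 133 ranked 1583, 17506 and 73 in the replicates, and rank 170 ranked 972, 5379 and 176, each highest in replicate 3.

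Autophagy and lysosome genes flanked 6 members (1.53%, 0.565 to 3.31%) against 0.799%. The aspartyl protease genes asp-13 at rank 183 and asp-19 at rank 223, the autophagy gene epg-9 at rank 236 and the cathepsin L gene cpl-1 at rank 325 led them. The last held an E-box. The first 3 stood highest in replicate 1, at 174, 116 and 209, and far lower in replicate 2, at 23060, 23463 and 8314. Replicate 3 placed the member at asp-13 at 1480 and that at epg-9 at 21079, and its list held no match for that at asp-19. The member at cpl-1 ranked 2168, 781 and 5778. The member at asp-13 lay 18228 bp upstream of that gene. Of the insulin, AMPK and TOR pathway genes, aakg-1 and aakg-2, both for gamma subunits of AMPK, flanked 1 member each (0.512% against 0.37%). Both members held an E-box, at ranks 164 and 699, 8307 and 2428 bp upstream of their genes. Detoxification genes flanked 5 (1.28% against 1.02%), at cyp-14A1, cyp-23A1, gst-35 and ugt-60.

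Chemoreceptor genes flanked 16 (4.09%, 2.36 to 6.56%) against 6.39%, with srx-113, srd-7, srd-43 and srxa-8 beside the highest. Neuropeptide and insulin-like peptide genes flanked 5 (1.28% against 2.49%), led by ins-8, ins-13, ins-17 and nlp-52. Collagen genes flanked 3 (0.767% against 1.42%), col-128, col-181 and col-78. F-box and MATH domain genes flanked 2 (0.512% against 2.06%), at fbxc-32, fbxc-7 and fbxa-85, and C-type lectin genes flanked 2 (0.512% against 1.14%), clec-180 and clec-12.

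**Figure D5:**
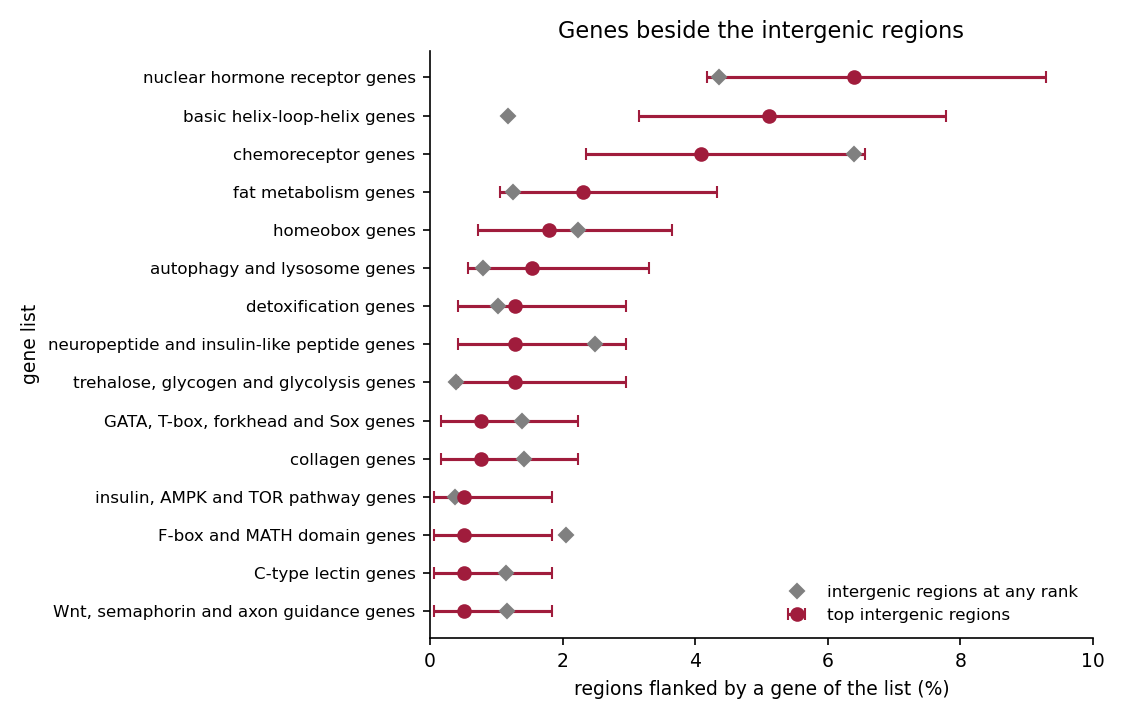
Share of the 391 intergenic regions with a gene of each list as left or right protein-coding neighbour (circles, with exact 95% intervals) and the same share over all 6758 intergenic regions of the pooled list (diamonds). The bHLH genes are at 5.12% against 1.17%, on 4 genes.

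Genes of short non-coding RNAs were also counted near the members. Within 200 bp of a tRNA, snRNA, snoRNA, rRNA or miRNA gene lay 31 members (7.93%, 5.45 to 11.1%), against 1.79% of intergenic regions at any rank. tRNA genes accounted for 20 (5.1%, against 1.04% of intergenic regions at any rank) and snoRNA genes for 9 (2.30%, against 0.37%). Of the 20, 17 were on chromosome X. How many of all tRNA genes lie on that chromosome was not counted, so the 17 have no background here. The highest, rank 81 on chromosome X, 3035941 to 3036224, lay at the tRNA genes WBGene00023110 and WBGene00023111 and ranked 65, 77 and 250. Rank 104 lay at WBGene00014295 and WBGene00014296 and ranked 72 and 103 in replicates 1 and 2, and rank 118 lay at WBGene00014486 and ranked 138 and 95. Neither had a region in replicate 3. In all, 22 of the 31 were among the first 1500 of replicate 1, 15 of replicate 2 and 3 of replicate 3. The E-box was in 2 of the 31 (6.45%, 0.791 to 21.4%). Replicate 3 thus held fewer of the members at RNA genes and more of those with an E-box. Its handling also differed by its labels, and the part of that was not tested. Nor was the level of a control library at RNA genes examined, since none was analysed here.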

How the data were processed

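ChIP-seq regions of 3 biological replicates were taken from the ce11 lists that the authors deposited: 1 list per replicate, 1 list pooled over all 3 and the reproducible list after thresholding by the irreproducible discovery rate. The signal value of each region was deposited by the authors and served here to rank and describe regions within a list. It was taken to describe the ChIP against a control on the scale of its own list, which the sources used here do not state. Which aligner, caller and rate cut-off produced the lists is not given in the sources used here. Lists in the ce10 build were not used. Most pooled regions were 284 bp wide. No read totals are given, so intervals cover the number of regions only.

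Regions were placed by their summits on the WBcel235 genome from RefSeq with the gene models of Ensembl release 115 (19973 protein-coding genes). Coordinates are 1-based. CACGTG was searched on both strands within 100 bp of the summit. Replicate regions were matched at summits within 200 bp. The 2 comparisons of E-box shares used two-sided Fisher's exact tests with Benjamini-Hochberg adjustment, and shares have exact Clopper-Pearson intervals of 95%. The gene-body class holds exons and introns.

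The members and gene lists were chosen with earlier results of these data known. The text names the 20 members of highest signal, every group of 3 or more members within 10 kb, up to 4 flanking genes per list and the 12 highest E-box sites, with no sequence shown from chromosome I. The hexamer pairs, the comparisons within rank ranges, those within replicate lists and the spacing of other sets were added after seeing the data. The symbols ram-4 and ugp-1 of the lists were not matched. Location, motif and matching steps were tested on simulated data. Tables were read with pandas 2.3.3 and numpy 2.4.6 under Python 3.11.15, tests used SciPy 1.17.1, and figures used matplotlib 3.10.9.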

Additional observations from a re-analysis of the deposited data

How the results depend on the processing

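With the first 750 regions there were 210 members, an E-box share of 33.3%, odds ratios of 1.48 against promoter and 1.25 against gene-body regions that no longer passed, and a median distance to a transcript start of 2596 bp. That distance was 1888 bp with promoter windows of 500 and 100 bp and 3109 bp with windows of 2000 and 500 bp, by construction. Within 50 bp of the summit the E-box share was 18.2%. Recovery in every replicate was 166 members with any listed region, and 51 to 77 when 1 replicate was left out. The share with another member within 20 kb was 38.6%. Added after seeing the data, the odds ratio against promoter regions no longer passed in the lists of replicates 1, 2 and 3 (1.03, 1.02 and 1.01) or among ranks 1 to 195 (1.46), and that against gene-body regions did not in replicates 1 and 3 (1.29 and 1.36) and turned below 1 among ranks 1 to 195 (0.741). The cause was not tested. Both comparisons passed with either promoter window, with 1 region per cluster, without gene bodies of other biotypes, within 50 bp of the summit and among ranks 196 to 1500. Within the last of these, the gene-body share was still above the intergenic share among ranks 196 to 500 (22 of 80 against 23 of 92). Paired within replicates, the intergenic share exceeded the promoter share by only 0.118 to 0.332 percentage points and the gene-body share by 3.07 to 7.68. The exact permutation of signs gave p = 0.25 for both, the smallest possible, so it could not pass with 3 replicates. Precision is limited by the unknown depth and by the 3 replicates.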

Other observations

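Other short sequences were counted around the members, on both strands within 100 bp of the summit. The E-box variant CACATG was in 67 of 391 members (17.1%, 13.5 to 21.2%), against 8.65% of intergenic regions below rank 1500 and 7.97% of all pooled regions. Other top regions were close to the members, with CACATG in 15.95% of top promoter and 14.4% of top gene-body regions. Of the 25 members in the reproducible list without CACGTG, 13 held it (52.0%, 31.3 to 72.2%). Some of the hexamer pairs shown above hold it as 1 of their hexamers. AGAGAC, which is no E-box, was in 102 members (26.1%, 21.8 to 30.7%), in 26.4% of top promoter regions and in 81 of 507 top gene-body regions, and in 9.49% of intergenic regions below rank 1500. It was as frequent in members with CACGTG (23 of 89) as in those without (79 of 302), at 25.8 and 26.2%.

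By chromosome, X held 103 members (26.3%) beside 26.1% of intergenic regions at any rank, and V held 56 (14.3%) beside 19.4%. The E-box share of members ran from 11.5% on chromosome I (7 of 61) to 32.5% on chromosome III (13 of 40). Summits of 45 members lay in an annotated gene that codes for no protein (11.5%, beside 12.6% of intergenic regions at any rank). Of these, 30 were in genes of the ncRNA class (7.67%, 5.24 to 10.8%, against 3.00% of intergenic regions at any rank), and 7 in pseudogenes (1.79%, 0.723 to 3.65%, against 8.20%).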
